A study of Mus musculus with 40 samples.

Results

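The insulin-like growth factor (IGF) system of the aging mouse brain was described here through 10 genes, which the arrays measured with 17 probes among 55589 probes for 36362 gene names. A probe was taken as a member when its gene name in the array files was Igf1, Igf2, Igf1r, Igf2r, Insr, Igfbp2, Igfbp3, Igfbp4, Igfbp5 or Igfbp7. These are 2 ligands, 3 receptors and 5 binding proteins.

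IGF-I and IGF-II are small secreted hormones that act on the tyrosine kinase receptor encoded by Igf1r and, together with insulin, on the insulin receptor encoded by Insr. Igf2r encodes the mannose-6-phosphate receptor, which takes up IGF-II and carries it to lysosomes. The binding proteins hold the ligands in extracellular fluid and set how much of them reaches a receptor, and proteases and matrix release them again. In the brain, Igf1 is known from neurons and microglia, whereas Igf2 and Igfbp2 are known from the choroid plexus and the meninges.

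The study compared the cerebrum (cerebral cortex) and the cerebellum of C57Bl/6 mice. Ttpa encodes the α-tocopherol transfer protein, without which vitamin E does not reach the tissues in normal amounts. In each region there were 5 groups, with 4 arrays and, per the methods, 4 mice in each: young wild type (2 months, on a normal diet that held 36 mg α-tocopherol per kg), aged wild type (29 months) kept on either the normal or the deficient diet, and Ttpa-/- animals of 29 months kept on either the deficient diet or a diet supplemented to 600 mg per kg. The aged groups are named below by diet and genotype, as in deficient-diet Ttpa-/- mice. Ttpa-/- mice lack the gene in all tissues, and no normal-diet Ttpa-/- mice and no young Ttpa-/- mice are among these samples.

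All levels below are log2 signals relative to the 75th percentile of the same array, and a change is a difference of such levels. A difference was called where its adjusted p was below 0.05 and its size above 1.5-fold, or 0.58 on the log2 scale. RNA came from whole tissue, in which fewer cells of a type and less RNA per cell cannot be told apart. The 40 arrays lay on 5 slides of 8, and each slide held 2 whole groups. Only aging in the cerebrum, the deficient diet in the wild-type cerebellum and the supplemented diet in the Ttpa-/- cerebellum were compared within 1 slide, and in all other comparisons slide and condition cannot be told apart. The region labels fitted their markers: the summed level of 6 cerebellar granule cell markers was 239 to 363 times the 75th percentile in the cerebellum and 3.77 to 6.19 times in the cerebrum. Of the 2 Ttpa probes, probe 1 was above background on 1 of the 40 arrays, in the Ttpa-/- cerebellum, and probe 2 exceeded background on 4 of 4 arrays of every wild-type cerebellum group, on 0 of 4 in Ttpa-/- cerebellum on the deficient diet and on 1 of 4 on the supplemented diet. Neither probe was above background on more than 1 array of a group in the cerebrum, where Ttpa therefore did not check the labels.

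Igf1 was covered by 5 probes, numbered by their mean signal, and these did not behave alike. The probe with the highest mean, probe 1, stands for the gene by the rule used, and it was designed on another transcript (NM_184052) than the rest (NM_010512). On mm9 it lies at chr10:87378456-87378515 on the plus strand, 15.1 kb before probe 4 (chr10:87393561-87393620), which shares 40 of its 60 bases with probe 3 (chr10:87393581-87393640). Probe 5 (chr10:87395924-87395983) and probe 2 (chr10:87399581-87399640) lie farther 3′. The first 30 of the 60 bases of each are shown because the Igf1 results depended on the probe, and capitals mark the bases that probes 3 and 4 share:
Igf1 probe 1: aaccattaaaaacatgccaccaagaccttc
Igf1 probe 2: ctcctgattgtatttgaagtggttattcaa
Igf1 probe 3: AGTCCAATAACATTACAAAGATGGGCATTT
Igf1 probe 4: cctaccaaataacaataataAGTCCAATAA
Igf1 probe 5: agaaatgtaaatggaataagaggtcagctg

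The other members with a call between conditions, Igfbp3, Igfbp4 and Igfbp7, rest on 1 probe each. The Igfbp7 probe was above background on 32 of 40 arrays, whereas the other 16 probes were above background on all 40. The probes of Igfbp3 (chr11:7106594-7106653, minus strand) and Igfbp4 (chr11:98913334-98913393, plus strand) on mm9 are shown likewise by their first 30 bases:
Igfbp3: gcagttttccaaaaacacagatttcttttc
Igfbp4: gagaagagaaacctcattcttggagtgaga

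With normal aging, Igf1 signal rose in the cerebellum on probes 3 and 4, and no other member was called in either region. In the cerebellum, probe 4 read -2.38, -2.61, -2.47 and -2.65 in young wild-type mice and -1.64, -1.31, -1.37 and -1.26 in aged ones. The groups did not overlap, and the rise was 1.13 ± 0.12 (SE), or 2.19-fold, with an adjusted p of 1.29e-08. Probe 3 rose by 0.94 ± 0.15 (SE), from a mean of -1.99 ± 0.05 (SD, n = 4) to -1.05 ± 0.22 (SD, n = 4), with an adjusted p of 2.06e-05. The overlap of their sequences makes the 2 probes 1 observation of nearly the same stretch. Probe 5, in the same transcript, was 0.33 ± 0.15 (SE) higher in aged mice, with groups apart and an adjusted p of 0.18, and probe 2 was 0.10 ± 0.13 (SE) higher with an adjusted p of 0.761. Probe 1 differed by 0.05 ± 0.18 (SE), with a 95% interval from -0.32 to 0.41.

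Probe 4 of Igf1 was also higher in the aged cerebrum, though by less than the fold threshold. Probe 4 read -2.86, -2.85, -2.96 and -3.04 in young and -2.52, -2.22, -2.14 and -2.77 in aged wild-type cerebrum. All 4 aged arrays lay above all 4 young arrays, and the difference was 0.51 ± 0.12 (SE), 1.43-fold, with an adjusted p of 0.00729. Both groups shared a slide. Under median scaling it was 0.47, with an adjusted p of 0.161, and without the aged array at -2.77 it was 0.63 and called. The test of the difference between regions gave 0.62 ± 0.17 (SE) more change in the cerebellum for probe 4, with an adjusted p of 0.0388, and this call was lost under 5 of 8 other settings and without any 1 of 11 of the 16 arrays. Probe 3, which overlaps probe 4, was 0.47 higher in the aged cerebrum, with overlapping groups and an adjusted p not below 0.05. Its difference between regions was 0.47, with an adjusted p of 0.322.

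Of the probes tested, 2.1% were called for aging in the cerebrum and 5.03% in the cerebellum, against 0 of 16 and 2 of 17 member probes, and 1.61% were called for the difference between regions. Markers of several cell types moved with age as well. All 6 markers of activated microglia (Clec7a, Itgax, Cst7, Gpnmb, Lpl and Spp1) and 5 of 7 general microglial markers rose with age in the cerebellum, and 5 of 6 and 0 of 7 did in the cerebrum. The summed level of the 6 activated markers was 0.588 to 1.03 times the 75th percentile in the young and 6.78 to 10.2 times in the aged wild-type cerebellum. Itgax and Cst7 were above background on 0 of 4 arrays of either young group. In the cerebellum, 2 of 3 blood markers also rose with age (Hbb-b1 and Alas2, summed level of the list 3.06 to 7.46 against 11.9 to 84.4 times), 1 of 9 endothelial markers rose (summed level 33.0 to 35.0 against 40.3 to 48.7 times), 2 of 5 tested striatal markers rose and 4 of 11 tested choroid plexus markers fell. The part of these cells in the Igf1 rise was not tested.

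**Figure D1:**
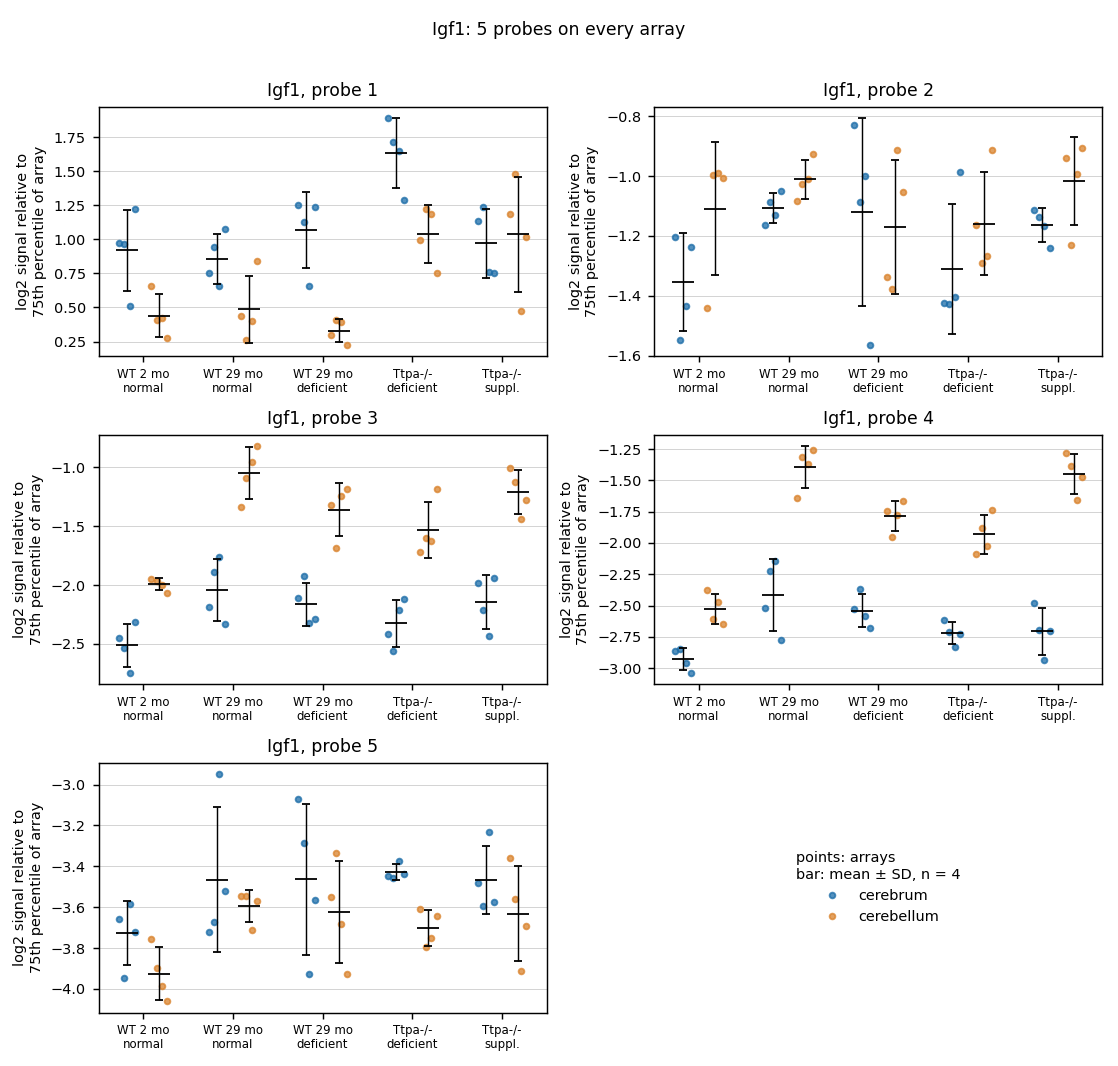
Igf1 signal of each of 5 probes on every array (log2 relative to the array's 75th percentile), by genotype, age and diet, with cerebrum in blue and cerebellum in orange; bars give the mean ± SD of 4 arrays. Probes 3 and 4 are higher in aged than in young cerebellum without overlap, while probe 1 is highest in the cerebrum of deficient-diet Ttpa-/- mice.

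In the aged cerebellum, probe 4 of Igf1 also differed between the diets, each time by less than 1.5-fold. Its level was -1.39 ± 0.17 (SD, n = 4) in normal-diet wild-type mice, -1.78 ± 0.12 (SD, n = 4) on the deficient diet, -1.93 ± 0.16 (SD, n = 4) in deficient-diet Ttpa-/- mice and -1.45 ± 0.16 (SD, n = 4) in supplemented-diet Ttpa-/- mice. The wild-type arrays on the deficient diet read -1.74, -1.95, -1.78 and -1.66, all just below the lowest array on the normal diet, and the difference was -0.39 ± 0.12 (SE) with an adjusted p of 0.0491. Ttpa-/- arrays on the deficient diet read -2.09, -1.88, -2.02 and -1.74, and those on the supplemented diet -1.28, -1.39, -1.65 and -1.47. These 2 groups did not overlap and differed by 0.48 ± 0.12 (SE), with an adjusted p of 0.0364. Each of these diet comparisons lay within 1 slide. On probe 3, the difference was -0.31 for the deficient diet and 0.32 for the supplemented diet, with overlapping groups and an adjusted p not below 0.05 in either. Against aged normal-diet wild-type mice, deficient-diet Ttpa-/- mice were 0.54 ± 0.12 (SE) lower on probe 4 (adjusted p of 0.00266) and 0.48 ± 0.15 (SE) lower on probe 3 (adjusted p of 0.026). The diet comparisons share arrays with the genotype comparisons and are not independent of them. Under median scaling, the adjusted p of the supplemented diet on Igf1 probe 4 became 0.437, and with the replicate number as a block that of the deficient diet became 0.0527. Of 6 activated microglia markers, 4 fell in Ttpa-/- cerebellum on the deficient diet against normal-diet wild type (Cst7, Gpnmb, Lpl and Spp1) and 0 passed in either diet comparison.

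In the cerebrum, probe 4 was not called in any comparison of diet or genotype, and the means of the aged groups ran from -2.72 to -2.41. The signals most like probe 4 over the 20 cerebellum arrays, a description made after the values of this probe were seen, belonged to Ctsd (r = 0.953), Ctsz (r = 0.951) and Ms4a7 (r = 0.935), the first 2 being lysosomal cathepsins. Over the 20 cerebrum arrays they belonged to Ctsh (r = 0.87), another lysosomal cathepsin, the complement gene C3 (r = 0.858) and Tlr2 (r = 0.852).

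Probe 1 of Igf1 gave another picture, with a higher signal in deficient-diet Ttpa-/- mice. In the cerebrum it read 0.75, 0.94, 0.66 and 1.07 in aged normal-diet wild-type mice and 1.89, 1.71, 1.65 and 1.29 in deficient-diet Ttpa-/- mice. The groups did not overlap, and the rise was 0.78 ± 0.18 (SE), 1.71-fold, with an adjusted p of 0.0029. Against deficient-diet wild-type cerebrum the difference was 0.57 ± 0.18 (SE), with groups apart, an adjusted p of 0.0341 and a fold under the threshold. On the supplemented diet the Ttpa-/- arrays read 1.13, 1.24, 0.76 and 0.75, again apart from the deficient diet, and the signal fell by 0.66 ± 0.18 (SE) with an adjusted p of 0.013. This fall was not called without replicate 1 of the Ttpa-/- deficient group (-0.58, adjusted p of 0.0689) or without replicate 3 of the supplemented group (-0.59, adjusted p of 0.0523). In the cerebellum, Ttpa-/- arrays on the deficient diet read 0.99, 1.22, 1.18 and 0.75 and wild-type arrays on the deficient diet 0.30, 0.41, 0.39 and 0.23. This rise was 0.71 ± 0.18 (SE), 1.63-fold, with an adjusted p of 0.00835. Against normal-diet wild-type cerebellum the difference was 0.55 ± 0.18 (SE), with overlapping groups, an adjusted p of 0.0372 and a fold under the threshold. For the supplemented diet the means in the cerebellum were 1.04 in both Ttpa-/- groups, with a 95% interval of the difference from -0.36 to 0.36. The difference between regions for the supplemented diet was 0.66 ± 0.25 (SE), with an adjusted p of 0.171.

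The other 4 Igf1 probes did not share these changes. For deficient-diet Ttpa-/- mice against normal-diet wild type in the cerebrum, they differed by -0.20, -0.28, -0.31 and 0.04 on probes 2 to 5, with 0 of 4 called. The mean over all 5 Igf1 probes differed by 0.0046 in that comparison. Over the 20 arrays of a region, the likeness of probe 1 with the other Igf1 probes was r = -0.25 to 0.16 in the cerebrum and -0.16 to 0.29 in the cerebellum, while probes 3 and 4 had r = 0.775 and 0.959. By contrast, 590 of 29531 probes (2%) in the cerebrum and 576 of 31818 (1.81%) in the cerebellum followed probe 1 with r over 0.9, and for no other member probe were there more than 17. The signals most like it belonged to Sf3a2, Sstr5 and Zglp1 in the cerebrum (r = 0.988, 0.988 and 0.987) and to Krtap10-10, Fam110a and Myo3b in the cerebellum (r = 0.986, 0.98 and 0.979). Sf3a2 encodes a splicing factor subunit, Sstr5 a somatostatin receptor and Myo3b a myosin. The arrays behind these likenesses share groups and slides. Whether probe 1 measured Igf1 transcripts was not tested.

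Igf2, the fetal growth factor that the choroid plexus and meninges go on making in adults, was not called in any comparison, and its largest difference between conditions was in the cerebrum. Its arrays read -1.61, -1.95, -1.69 and -1.54 in aged normal-diet wild-type mice and -1.14, -0.88, -0.79 and -1.63 in deficient-diet Ttpa-/- mice. The Ttpa-/- array at -1.63 lay among the wild-type arrays, and the difference was 0.59 ± 0.24 (SE), 1.50-fold, with an adjusted p of 0.0804. Without that array it was 0.76 and called, with an adjusted p of 0.0245, and with the replicate number as a block the adjusted p was 0.0344. In the cerebellum the same comparison gave -0.30 ± 0.24 (SE), and the difference between regions had an adjusted p of 0.0973. The groups of the cerebrum, in falling order, had means of -1.11 in deficient-diet Ttpa-/- mice, -1.25 in deficient-diet wild type, -1.38 in supplemented-diet Ttpa-/- mice, -1.70 in aged normal-diet wild type and -1.88 in young wild type. Neighbours in this order overlapped, except the Ttpa-/- supplemented group and aged normal-diet wild type. In the cerebellum all neighbours overlapped, with means from -2.16 to -1.80.

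Over the cerebrum arrays, the signals most like Igf2 belonged to Mmp14, a membrane matrix metalloproteinase (r = 0.943), Zfp395 (r = 0.882) and Ace, the angiotensin-converting enzyme (r = 0.865). In the cerebellum the closest were Kcnj13, a potassium channel of the choroid plexus (r = 0.794), Abca4 (r = 0.76) and Rtn4rl2 (r = 0.757). The summed level of 12 leptomeningeal markers was 304 to 340 times the 75th percentile in aged wild-type cerebrum on the normal diet and 342 to 354 times in Ttpa-/- cerebrum on the deficient diet, so these groups did not overlap, and 1 of 12 was called, Lum, which fell. The mean log2 level of the same list was 1.49 in the wild-type and 1.42 in the Ttpa-/- group, so the list did not rise as a whole. The summed level of 12 choroid plexus markers ran from 4.45 to 150 and from 12.4 to 181 times in the same groups. Over the 20 cerebrum arrays, Igf2 had r = 0.493 with the mean log2 level of the leptomeningeal markers and 0.418 with that of the choroid plexus markers. It had r = 0.67 with blood markers and -0.667 with microglial markers. The part of these tissues and cells in the Igf2 levels was not tested.

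**Figure D2:**
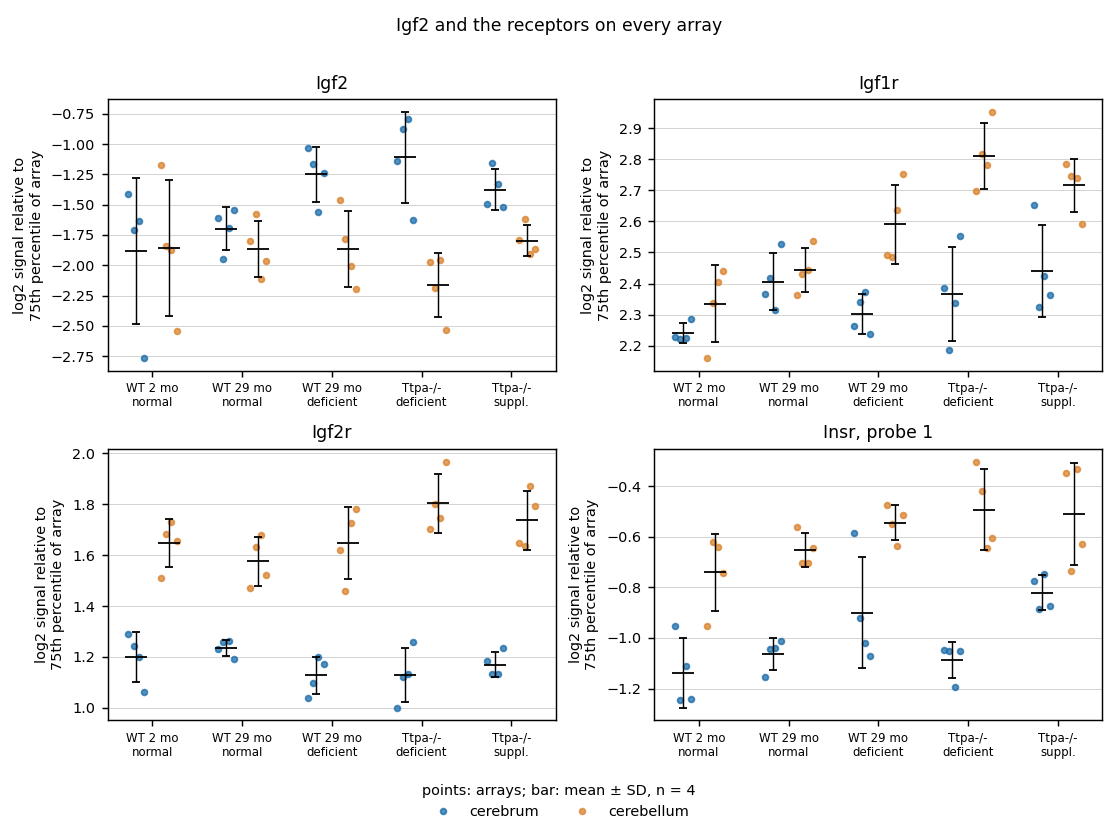
Signals of Igf2, Igf1r, Igf2r and Insr on every array (log2 relative to the array's 75th percentile), by genotype, age and diet, with the mean ± SD of 4 arrays. Igf2 spreads widest in both young groups, Igf1r and Igf2r are highest in the cerebellum of deficient-diet Ttpa-/- mice, and Insr, drawn from its probe 1, is higher in cerebellum than in cerebrum.

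The receptors changed little. None of the 5 receptor probes was called between conditions, and the differences ran from -0.20 to 0.37. Igf1r in the cerebellum read 2.36, 2.43, 2.44 and 2.54 in aged normal-diet wild-type mice and 2.70, 2.81, 2.78 and 2.95 in deficient-diet Ttpa-/- mice. The Ttpa-/- arrays lay above all wild-type arrays, by 0.37 ± 0.08 (SE) or 1.29-fold, with an adjusted p of 0.00312. Igf2r was 0.23 ± 0.08 (SE) higher in the same comparison, again with groups apart and an adjusted p of 0.0439. In the cerebrum the differences were -0.04 for Igf1r and -0.11 for Igf2r. The difference between regions was 0.41 ± 0.12 (SE) for Igf1r and 0.34 ± 0.11 (SE) for Igf2r, with adjusted p of 0.0264 and 0.0486, both under the fold threshold. Under median scaling, the adjusted p of these cerebellar differences became 0.162 for Igf1r and 0.375 for Igf2r, with values of 0.37 and 0.23. Insr, with 3 probes, was not called, and its lowest adjusted p between conditions was 0.069, for the supplemented diet in the Ttpa-/- cerebrum (0.27 ± 0.10, SE, probe 1).

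Among the binding proteins, Igfbp3 rose in the cerebrum of deficient-diet Ttpa-/- mice. It read -1.83, -2.03, -2.03 and -1.77 in aged normal-diet wild-type mice and -1.58, -1.09, -1.28 and -1.28 in deficient-diet Ttpa-/- mice. The groups did not overlap, and the rise was 0.61 ± 0.18 (SE), 1.52-fold, with an adjusted p of 0.0167. The fold lay just over the threshold, and the call was lost without replicate 2 (0.57) or 3 (0.57) of the wild-type group, without replicate 2 of the Ttpa-/- group (0.54), and under another background correction (0.49). The supplemented Ttpa-/- arrays read -1.65, -1.20, -2.17 and -2.02 and spread over both groups, with a difference from the deficient diet of -0.45 ± 0.18 (SE) and an adjusted p of 0.0868. Against deficient-diet wild-type mice the difference was 0.49 ± 0.18 (SE), with an adjusted p of 0.0667. Between the groups of this call in the cerebrum, 2 of 7 striatal markers rose (Drd2 and Ppp1r1b, summed level of the list 18.2 to 21.3 against 26.9 to 32.8 times the 75th percentile) and 3 of 6 markers of activated microglia fell, and their part in the Igfbp3 and Igf1 probe 1 changes was not tested. In the cerebellum, Igfbp3 means ran from -1.74 to -1.31 and no condition was called.

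Igfbp7, a secreted protein of vessels that binds IGF-I weakly, rose in the cerebellum of deficient-diet Ttpa-/- mice. It read -4.27, -4.32, -4.34 and -2.94 in aged normal-diet wild-type mice and -3.11, -2.57, -2.60 and -3.00 in deficient-diet Ttpa-/- mice. The wild-type array at -2.94 stood apart from the other 3 and overlapped the Ttpa-/- arrays. The rise was 1.15 ± 0.24 (SE), 2.22-fold, with an adjusted p of 0.00153. In a fit of these 2 groups alone the adjusted p was 0.0942, and with another background correction the rise was 0.46, under the fold threshold. The level was -3.38 ± 0.23 (SD, n = 4) in deficient-diet wild-type mice and -3.06 ± 0.37 (SD, n = 4) in supplemented-diet Ttpa-/- mice. Deficient-diet Ttpa-/- mice, with a mean of -2.82, were not called against deficient-diet wild-type mice, and the adjusted p was not below 0.05. The deficient diet in wild-type mice gave a difference of 0.59 ± 0.24 (SE) with an adjusted p of 0.141, and without the wild-type array at -2.94 this was 0.93 with an adjusted p of 0.0168. In the cerebrum, Igfbp7 was above background on 1 of 4 arrays in normal-diet wild type, the reference group, and on 4 of 4 in deficient-diet Ttpa-/- mice, so the size of a difference there, and of a difference between regions, is limited by background. The summed level of 9 endothelial markers was 40.3 to 48.7 times the 75th percentile in the wild-type and 39.4 to 49.1 times in the Ttpa-/- cerebellum of this comparison, with 0 of 9 called. Between the same groups, 4 of 6 markers of activated microglia and 2 of 6 of oligodendrocytes fell. So did 1 of 7 microglial, 1 of 6 astrocyte and 1 of 5 Purkinje cell markers. Over the 20 cerebellum arrays, Igfbp7 had r = 0.687 with endothelial and -0.696 with Purkinje cell markers. The part of these cells in the Igfbp7 rise was not tested. Igfbp7 was above background on 1 of 4 arrays in deficient-diet wild-type cerebrum too and on 2 of 4 in young cerebrum, and it was not tested for aging or for the deficient diet in wild-type cerebrum.

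Igfbp4 fell in the cerebellum with loss of Ttpa on the deficient diet. It read -1.41, -0.84, -2.24 and -1.94 in wild-type and -2.46, -2.52, -2.36 and -1.90 in Ttpa-/- mice, so that the groups overlapped. The fall was 0.70 ± 0.23 (SE) in size, 1.63-fold, with an adjusted p of 0.0425. It was called under 4 of 11 other settings and without 3 of 8 arrays, and without the wild-type array at -0.84 it was -0.45 with an adjusted p of 0.221. Against normal-diet wild-type mice, which held the array at -2.89, the difference was -0.28 ± 0.23 (SE) with an adjusted p of 0.467.

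Igfbp5, the matrix-binding member of the family, was higher with age in the cerebrum, below the fold threshold. It read 2.61, 2.78, 2.70 and 2.86 in young and 3.33, 3.37, 3.37 and 2.90 in aged wild-type mice. The groups did not overlap and differed by 0.51 ± 0.13 (SE), 1.42-fold, with an adjusted p of 0.0187. Without the aged array at 2.90 the difference was 0.62 and was called, and under median scaling it was 0.46 with an adjusted p of 0.154. In the cerebellum it differed by -0.02 ± 0.13 (SE), and the difference between regions had an adjusted p of 0.176. Igfbp5 was not called for diet or genotype. Markers of the striatum moved with age in the cerebrum as well: 2 of 7 fell, Adora2a and Rgs9, and their summed level was 29.7 to 44.1 times the 75th percentile in young and 18.2 to 21.3 times in aged mice. In the same comparison, 5 of 6 markers of activated microglia and 1 of 6 of astrocytes rose. Over the 20 cerebrum arrays, Igfbp5 had r = 0.626 with activated microglial, 0.593 with astrocyte and -0.562 with striatal markers. The part of these cells in the Igfbp5 difference was not tested.

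Igfbp2 was not called between conditions on either of its 2 probes. The Ttpa-/- cerebrum on the deficient diet read 2.45, 2.74, 2.76 and 2.72 on probe 1, above all wild-type arrays on the deficient diet (2.15, 2.22, 2.02 and 2.28), with a difference of 0.50 ± 0.20 (SE) and an adjusted p of 0.0976. Probe 2 gave 0.50 ± 0.19 (SE), with an adjusted p of 0.0812.

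**Figure D3:**
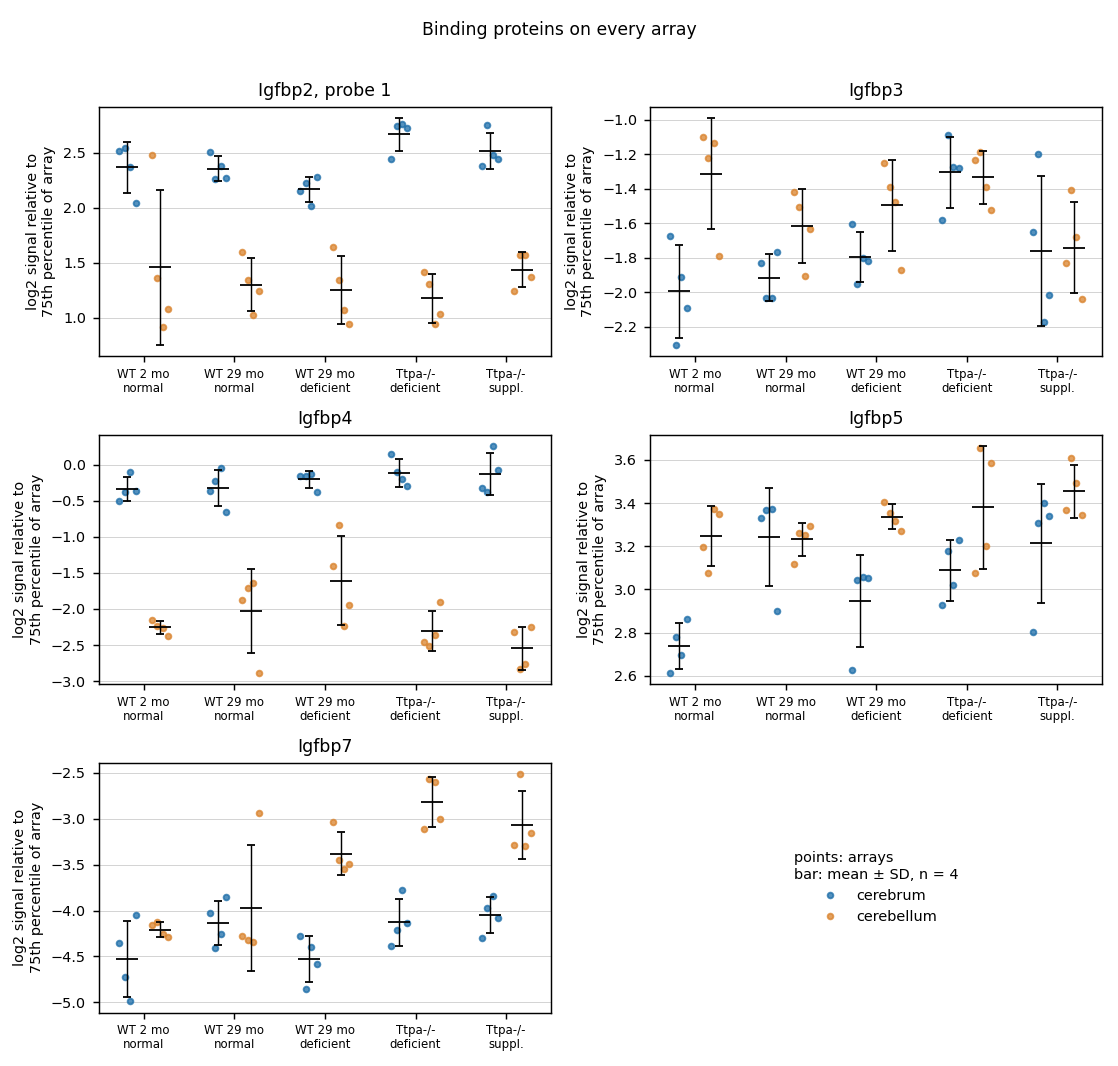
Signals of 5 binding proteins on every array (log2 relative to the array's 75th percentile), by genotype, age and diet, with the mean ± SD of 4 arrays. Igfbp2 and Igfbp4 are higher in cerebrum, and for Igfbp7 1 aged wild-type cerebellum array at -2.94 lies with the Ttpa-/- arrays.

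The calls between conditions stood against the background of all probes tested as follows. For deficient-diet Ttpa-/- mice against normal-diet wild type, 2 of 17 member probes were called in the cerebrum (Igf1 probe 1 and Igfbp3) against 4.76% of all probes tested, and 1 of 17 in the cerebellum (Igfbp7) against 4.46%. For Ttpa-/- against deficient-diet wild-type mice, 0 of 17 were called in the cerebrum against 3.07% and 2 of 17 in the cerebellum (Igf1 probe 1 and Igfbp4) against 4.96%. For the supplemented against the deficient diet in Ttpa-/- mice, 1 of 17 was called in the cerebrum (Igf1 probe 1) against 3.31% and 0 of 17 in the cerebellum against 0.343%. For the deficient diet in wild-type mice, 0 of 16 and 0 of 17 were called against 0.223% in the cerebrum and 1.28% in the cerebellum. The median change of the member probes ran from -0.11 to 0.10 over these and the aging comparisons. In each of them, groups lay apart for 5.34% to 23.4% of all probes tested and for 0 to 4 of the 17 member probes. The differences between regions were called for 3.66% of all probes tested for deficient-diet Ttpa-/- mice against normal-diet wild type, 0.00728% for the deficient diet in wild type and 0.0894% for the supplemented diet, against 1 of 17 (Igfbp7, with the limit given above), 0 of 16 and 0 of 17 member probes. These comparisons share groups, so their calls are not independent.

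**Figure D4:**
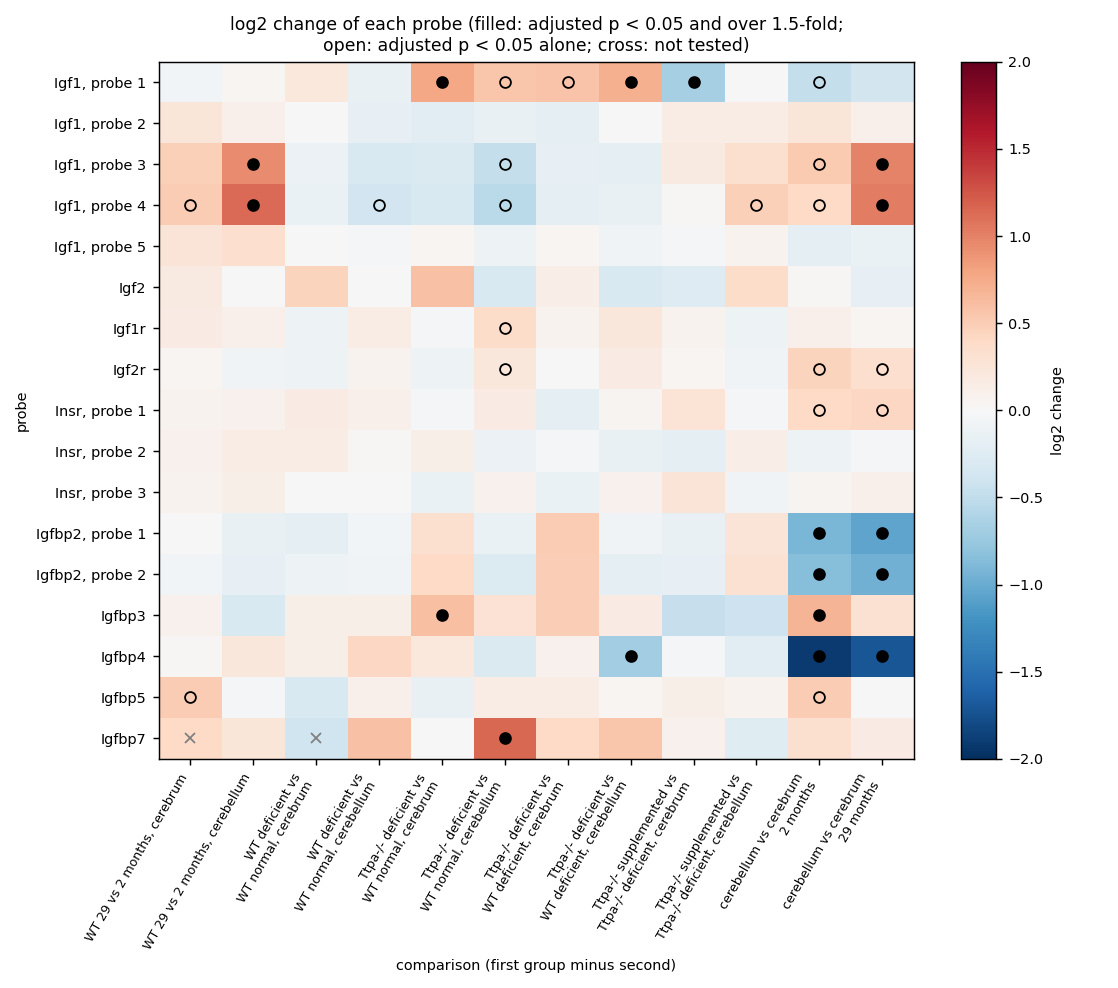
Heat map of the log2 change of all 17 member probes (rows) in 12 comparisons (columns, first group minus second), with red for higher and blue for lower in the first group. Filled circles mark calls, open circles an adjusted p under 0.05 with a fold change under 1.5, and crosses comparisons in which the probe was not tested; apart from the regions, the calls lie on Igf1, Igfbp3, Igfbp4 and Igfbp7.

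Between the regions, Igfbp4 and Igfbp2 were called lower in the cerebellum at both ages, and probes 3 and 4 of Igf1 higher at 29 months. Igfbp4, a binding protein cleaved by the protease pappalysin, read -0.50, -0.39, -0.11 and -0.37 in young wild-type cerebrum and -2.16, -2.23, -2.26 and -2.38 in young cerebellum. It was lower in the cerebellum by 1.91 ± 0.23 (SE), 3.77-fold, at 2 months and by 1.70 ± 0.23 (SE), 3.26-fold, at 29 months, with adjusted p of 1.4e-08 and 1.73e-07. Igfbp2 was also lower in the cerebellum, with a difference on probe 1 of -0.91 ± 0.20 (SE) at 2 months and -1.05 ± 0.20 (SE) at 29 months, and probe 2 was called at both ages as well. Igfbp3 was higher in the cerebellum by 0.68 ± 0.18 (SE) at 2 months, with overlapping groups and an adjusted p of 0.00142 (0.58 and not called without replicate 2 of the young cerebrum), and was not called at 29 months (0.30 ± 0.18, SE). Probes 3 and 4 of Igf1 were higher in the cerebellum by 0.99 ± 0.15 (SE) and 1.02 ± 0.12 (SE) at 29 months, whereas at 2 months the differences of 0.52 and 0.40 were under the fold threshold. Probe 1 of Igf1, which stands for the gene, was lower in the cerebellum at both ages, by -0.48 to -0.37, with overlapping groups. Its lowest adjusted p was 0.0204, under the fold threshold, and without replicate 3 of the young cerebrum the difference at 2 months was -0.62 and called. Probe 5 differed by -0.20 to -0.13 and probe 2 by 0.10 to 0.25, and neither was called. Igf2r and Insr (probe 1) were higher in the cerebellum at both ages by 0.34 to 0.45, with groups apart and below the fold threshold, while probes 2 and 3 of Insr differed by -0.10 to 0.10. In all, 4 of 17 member probes were called at 2 months and 5 of 17 at 29 months, against 38.4% and 33.6% of all probes tested. Groups lay apart for 6 and 7 of the 17 member probes, against 58.1% and 56.4% of all probes tested. The regions lay on different slides in these comparisons, so slide and region cannot be told apart.

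Igfbp2 varied most within the young cerebellum, where it moved with markers of the choroid plexus. In the young cerebellum its probe 1 read 2.47 on replicate 1 and 1.36, 0.92 and 1.07 on the others, and the summed level of 12 choroid plexus markers was 253 times the 75th percentile on replicate 1 and 32.9, 11.8 and 9.06 times on the others. The array with the most choroid plexus signal was thus the one on which Igfbp2 reached the level of the cerebrum. Without it, the difference between the regions at 2 months was -1.25, against -0.91 with it. In the 4 aged cerebellum groups, choroid plexus markers summed to 5.38 to 8.56 times the 75th percentile and Igfbp2 stayed between 0.94 and 1.64. In the cerebrum, 3 arrays had choroid plexus markers under 13 times the 75th percentile, and their Igfbp2 was 2.04 to 2.45. The part of the choroid plexus in the Igfbp2 levels was not tested.

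**Figure D5:**
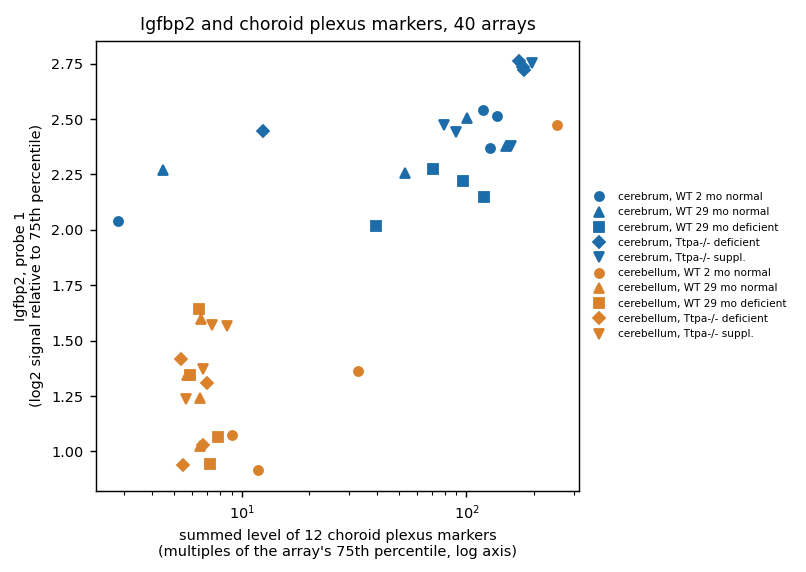
Igfbp2 signal (probe 1, log2 relative to the array's 75th percentile) against the summed level of 12 choroid plexus markers (log axis) on 40 arrays, with colour for region and marker shape for group. One young cerebellum array at 2.47 lies with the cerebrum arrays and has 253 times the 75th percentile of choroid plexus signal.

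Other genes of the pathway, a list of 42 genes from ligand proteases to insulin signalling, had 0 to 2 called genes in each comparison between conditions. Each was read from its probe with the highest mean alone, and any other probes of these genes were not examined. With aging in the cerebellum, 2 of 34 tested rose (5.88%, against 5.03% of all probes tested), Foxo1, a transcription factor that insulin signalling keeps out of the nucleus (0.70 ± 0.16, SE, adjusted p of 0.00248), and Grb10, an adaptor that dampens both receptors (0.78 ± 0.20, SE, adjusted p of 0.0105). In the cerebrum 0 of 31 were called for aging. Ide, the insulin-degrading enzyme, fell by 0.66 ± 0.21 (SE) in the cerebrum of deficient-diet Ttpa-/- mice against normal-diet wild type, with an adjusted p of 0.0267, as 1 of 31 tested (3.23%, against 4.76%). Foxo3 fell by 1.07 ± 0.34 (SE) there against deficient-diet wild-type mice, with an adjusted p of 0.0368, again as 1 of 31 (3.23%, against 3.07%). In the cerebellum, Igfbp1, a binding protein known best from liver, fell by 1.13 ± 0.37 (SE) against the normal diet and by 1.79 ± 0.37 (SE) against the deficient diet in wild-type mice, with adjusted p of 0.0398 and 0.0016, as the single called gene of 34 in each (2.94%, against 4.46% and 4.96%). No gene of the list was called for the deficient diet in wild-type mice or for the supplemented diet in Ttpa-/- mice.

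Between regions, 16 of 33 tested genes of the list differed at 2 months (48.5%, against 38.4% of all probes tested) and 15 of 35 at 29 months (42.9%, against 33.6%), 8 higher in the cerebellum at each age. The largest differences were those of Pappa2, a protease that cleaves binding proteins (-4.55 at 2 months and -4.34 at 29 months), Igfbp1 (3.94 and 2.90) and H19, the noncoding RNA beside Igf2 (3.14 and 2.09). At 2 months they were followed by Pappa (2.36) and Insrr (1.58), and at 29 months by Igfbpl1 (2.33) and Insrr (1.43).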

How the data were processed

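RNA of 40 brain samples was hybridised to 1-colour Agilent arrays of 62976 spots, on mm9. The authors deposited scanner files with intensity values, made with Agilent Feature Extraction (version 10.7.3.1 in the file headers, 10.1.1.1 in the processing notes), in which the processed signal is background-subtracted and detrended. The authors also deposited a log2 table, scaled alike and with each probe's mean subtracted, which was used as an alternative. Differences between arrays in it departed from those computed here by a median of 0.00097.

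Spots of controls and those with an outlier flag (95 to 148 an array) were dropped, spots of the same probe were averaged, and log2 processed signals were set relative to the array's 75th percentile (365 to 925 units). Of 55681 probes, 55589 were kept and 51.4% to 61.4% of probes were above background on an array. Arrays within a group correlated at r = 0.973 to 0.993, and their number limits the precision. All 10 groups were fitted together with limma 3.58.1 in R 4.3.3, and p-values were adjusted by Benjamini-Hochberg over all probes that exceeded background on every array of 1 or both compared groups. The scripts were tested on simulated data. The labels do not say that the samples of a group came from separate mice, which the methods state.

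The members and gene lists were chosen with earlier results of these data known. All 10 members are named. The probe with the highest mean stands for a gene, and for members the other probes are given where a call or sign differs. From the pathway list, the called genes are named, at most 5 in a comparison, and for Igf1 and Igf2 the 3 genes with the highest correlation in a region. Same-numbered replicates deviated together for the supplemented diet in the cerebrum (r = 0.227, 0.347, 0.167 and 0.254). The r values were also all positive for this diet in the cerebellum (0.315, 0.599, 0.032 and 0.34). They were so for aging in the cerebrum too (0.076, 0.032, 0.448 and 0.387). Over all comparisons r ran from -0.40 to 0.60, and the labels do not say that the numbers pair samples. Values come from the fit without the block, which changed no call for the supplemented diet in the cerebrum. The alternatives were other scalings and background corrections, no filter, the replicate block, array weights, other tests and leaving out each array.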

Additional observations from a re-analysis of the deposited data

Results flagged for a closer look

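In 8 of 100 groups of 4 arrays checked, 1 array lay far from the other 3, by Dixon's test at the 95% level, and chance gives about 1 in 20. For Igf1r it was replicate 4 of the young wild-type cerebrum, the highest at 2.29. For Insr it was replicate 3 of the Ttpa-/- cerebrum on the deficient diet, the lowest at -1.20. For Igfbp2 it was replicate 1 of the same group, the lowest at 2.45. For Igfbp4 it was replicate 4 of the wild-type cerebrum on the deficient diet, the lowest at -0.38. For Igfbp5 it was replicate 4 of the aged wild-type cerebrum on the normal diet, the lowest at 2.90, replicate 1 of the wild-type cerebrum on the deficient diet, the lowest at 2.63, and replicate 1 of the Ttpa-/- cerebrum on the supplemented diet, the lowest at 2.80. For Igfbp7 it was replicate 4 of the aged wild-type cerebellum on the normal diet, the highest at -2.94.

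The effects in the 2 regions differed by the test of the difference for 2 probes. Aging changed Igf1 probe 4 by 0.62 more in the cerebellum than in the cerebrum, with an adjusted p of 0.0388. This call held under 3 of 8 other settings and without each of 5 of the 16 arrays in turn. Loss of Ttpa with the deficient diet gave a fitted difference of 1.14 for Igfbp7, with an adjusted p of 0.0306, but Igfbp7 was above background on 1 of 4 arrays of the wild-type cerebrum group behind it. It was called under 4 of 8 other settings, with values from 0.34 to 1.18, and without each of 8 of the 16 arrays in turn it was not called.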

How the results depend on the processing

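No called change of a gene turned direction under any alternative run. The rise of Igf1 probes 3 and 4 with age in the cerebellum was called under 11 of 11 settings and without any 1 of 8 arrays. Of the 12 called changes on the probes that stand for genes, 5 were lost under the normexp background correction, 4 with the compared groups alone and 2 under median scaling. The adjusted form of the methods' t-test lost 4 of 11, and the mean over all probes of a gene lost 3 of 5. Probes 3 and 4 of Igf1 and probe 2 of Igfbp2 are not among these 12.

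Counts of called member probes moved as follows, and the cause was not tested. By adjusted p alone they were 2 for aging in the cerebrum, 1 for the deficient diet in wild-type cerebellum, 6 for deficient-diet Ttpa-/- mice against normal-diet wild type in the cerebellum, 1 against deficient-diet wild type in the cerebrum, 1 for the supplemented diet in the cerebellum and 10 for the region at 2 months. With array weights they were 1 for the deficient diet in wild-type cerebellum, 2 in the cerebellum against the normal diet, 2 and 1 in cerebrum and cerebellum against the deficient diet, and 2, 3 and 1 for the differences between regions in aging, Ttpa loss and the supplemented diet. For Ttpa loss on the deficient diet in the cerebellum the count was 1 under median scaling, normexp, no filter, the compared groups alone and both forms of the methods' t-test. For Ttpa-/- mice against the normal diet, normexp gave 1 in the cerebrum and 0 in the cerebellum, and the compared groups alone and the adjusted t-test gave 0 in the cerebellum. For the supplemented diet in the cerebrum both of these gave 0, and the adjusted t-test gave 2 for the region at 2 months. The difference between regions in aging was 0 under median scaling, quantile normalization, normexp, no filter and the compared groups alone, and that in Ttpa loss 0 under median scaling, quantile normalization and the compared groups alone. With the replicate block it was 2, through Igf2 (-0.89, adjusted p of 0.0434), and Igf2 was called in the cerebrum. Same-numbered samples share only a number in these comparisons. The block changed no call for the supplemented diet in the cerebrum. Median scaling moved the median of all probes to -0.19 for the deficient diet in wild-type cerebellum and to 0.17 for Ttpa loss on the deficient diet there.

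Leaving out each array in turn gave 0 to 2 calls for aging in the cerebrum, 0 to 1 for the deficient diet in wild-type cerebellum, 1 to 3 and 1 to 4 in cerebrum and cerebellum for Ttpa-/- mice against the normal diet, 0 to 1 and 1 to 2 against the deficient diet, and 0 to 2 for the supplemented diet in the cerebrum. It gave 3 to 5 for the region at 2 months, and 0 to 1, 0 to 2 and 0 to 1 for the differences between regions in aging, Ttpa loss and the supplemented diet. The slide as a block was not run, since each group lay on 1 slide. Igfbp7 in wild-type cerebrum is limited by background.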
